A study of Homo sapiens with 8 samples.

Results

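The genes of base excision repair and of the replicative DNA polymerases delta and epsilon were examined in MDA-MB-157, an established human breast cancer cell line without estrogen receptor. A list of 34 gene symbols defined the set, and all 34 were found among the 21059 genes of the expression table. RNA sequencing was done on cells kept for 48 hours with 5 mM glucose (low glucose, 4 libraries) or with 25 mM glucose (high glucose, 4 libraries), so that the comparison asks how transcript levels in this line differ between the glucose levels. Both groups were the same line, kept without serum in the medium, and the labels do not say whether the 4 replicates of a group were separate flasks, so p-values measure the spread between these libraries, which may be technical. The study conditioned all cells in low glucose first, and whether mannitol balanced the osmolarity of the low glucose medium in these libraries is not given in the sources used here. The line is 1 cell line from 1 tumor, and no comparison here extends to other lines. Values are given in CPM, the count of a gene per 1000000 reads after the scaling between libraries that the authors applied.

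Base excision repair removes single damaged or wrong bases from DNA. A DNA glycosylase cuts out the base, an AP endonuclease nicks the strand at the empty site, and a polymerase and a ligase fill and seal the gap, either with 1 nucleotide (short patch, polymerase beta and DNA ligase III with the scaffold XRCC1) or with a longer stretch that displaces a flap (long patch, with PCNA, FEN1 and DNA ligase I). Poly(ADP-ribose) polymerases detect the nick, and end-processing enzymes clean ends that cannot be ligated. Polymerase epsilon copies most of the leading strand and polymerase delta most of the lagging strand of replicating DNA, both with the sliding clamp PCNA. Uracil enters DNA in place of thymine or arises from cytosine, and 8-oxoguanine arises when guanine is oxidized.

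Promoter sequence was shown for 6 members because several of them take part in replication, and replication genes often carry E2F-type letters (bound by the E2F family of cell-cycle factors) or CCAAT boxes (bound by NF-Y) close to their starts. Each line gives the 250 bases before an annotated start in the RefSeq annotation of GRCh38.p14, 5′ to 3′ on the strand of the gene, with matches to the letters TTTGGCGC, TTTCGCGC, TTTCCCGC or TTTGCCGC or their reverse complements, and matches to CCAAT or its reverse complement, in capitals. The windows lie at chr12:109097922-109098171 on the plus strand (UNG), chr20:5126623-5126872 on the minus strand (PCNA), chr12:132687343-132687592 on the minus strand (POLE), chr2:74958393-74958642 on the plus strand (POLE4), chr19:48170345-48170594 on the minus strand (LIG1) and chr14:20454976-20455225 on the plus strand (APEX1). For UNG and PCNA the start is an alternative one and not the start of the canonical transcript, whose own window held no E2F-type letters.
UNG: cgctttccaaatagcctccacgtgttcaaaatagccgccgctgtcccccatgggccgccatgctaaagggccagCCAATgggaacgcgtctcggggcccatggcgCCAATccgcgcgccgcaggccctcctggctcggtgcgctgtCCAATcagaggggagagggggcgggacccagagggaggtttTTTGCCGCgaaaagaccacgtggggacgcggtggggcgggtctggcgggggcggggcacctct
PCNA: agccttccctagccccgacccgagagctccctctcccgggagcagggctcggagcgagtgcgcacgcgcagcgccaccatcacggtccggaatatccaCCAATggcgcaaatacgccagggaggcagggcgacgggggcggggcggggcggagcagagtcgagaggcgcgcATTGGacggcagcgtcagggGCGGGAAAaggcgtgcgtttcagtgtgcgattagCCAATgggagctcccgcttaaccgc
POLE: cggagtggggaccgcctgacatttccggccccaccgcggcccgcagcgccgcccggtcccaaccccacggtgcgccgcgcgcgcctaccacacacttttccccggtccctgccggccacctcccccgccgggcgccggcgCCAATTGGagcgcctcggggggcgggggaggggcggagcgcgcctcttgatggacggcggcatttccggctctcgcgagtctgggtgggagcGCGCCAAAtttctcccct
POLE4: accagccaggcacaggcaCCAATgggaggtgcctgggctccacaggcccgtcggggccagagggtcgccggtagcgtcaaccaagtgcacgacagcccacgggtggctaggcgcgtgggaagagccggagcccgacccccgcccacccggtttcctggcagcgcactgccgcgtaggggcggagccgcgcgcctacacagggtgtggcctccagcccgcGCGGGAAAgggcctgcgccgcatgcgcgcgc
LIG1: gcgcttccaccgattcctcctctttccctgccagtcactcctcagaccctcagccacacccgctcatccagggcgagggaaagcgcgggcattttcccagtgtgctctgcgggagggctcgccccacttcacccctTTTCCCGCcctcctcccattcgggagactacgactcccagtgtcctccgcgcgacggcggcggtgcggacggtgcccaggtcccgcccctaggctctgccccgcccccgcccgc
APEX1: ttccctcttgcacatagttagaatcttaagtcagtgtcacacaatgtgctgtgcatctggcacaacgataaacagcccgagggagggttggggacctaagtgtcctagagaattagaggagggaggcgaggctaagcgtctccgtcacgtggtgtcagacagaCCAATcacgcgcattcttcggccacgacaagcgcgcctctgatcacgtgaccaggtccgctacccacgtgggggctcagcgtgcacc
The first 5 of these are all the members in which a window held E2F-type letters, and APEX1, which held a CCAAT box only, is given because it had the smallest adjusted p among the members that fell.

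A window was found for 30 members. E2F-type letters were present in 5 of the 30 (16.7%), against 5.58% of the 10368 genes with a window and a mean of at least 1 CPM and 3.38% of all 27167 genes with a window. In these 5, UNG, PCNA and POLE were higher at high glucose (POLE with groups that overlapped), LIG1 was lower and POLE4 did not pass the test. Of the 25 members without these letters, 5 were higher, 11 were lower and 9 did not pass. CCAAT was present in 19 of 30 members (63.3%), against 41.7% of the genes with a mean of at least 1 CPM. Among those 19, 5 were higher and 8 were lower, and among the 11 without CCAAT, 3 were higher and 4 were lower. Over all genes with a mean of at least 1 CPM, 29.5% were called higher and 32.6% lower, shares that were not split by letters. A match is a string of letters and not a measured binding site, and these counts and shares are descriptions with no test.

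The libraries held an estimated 9721600 to 12482500 reads, and a level of 3 reads corresponded to 0.2118 to 0.2666 CPM. The lowest value of any member in any library was 1.62 CPM, so every member was measured above that level throughout. The line's defining pattern was present in part: ESR1, the estrogen receptor, was at 0 to 0.17 CPM and VIM at 2856 to 4116 CPM, PGR stood at 4.33 to 5.96 CPM, and ERBB2 was measured at 35.7 to 65.0 CPM. VIM and ERBB2 were both lower at high glucose (means 2967 against 4091 CPM and 39.2 against 63.6 CPM). Of the epithelial markers, KRT8 (88.3 against 130.8 CPM) and KRT18 (170.1 against 233.5 CPM) were also lower. EPCAM was higher (7.0 against 4.5 CPM), and CDH1 and KRT19 did not pass the test. Markers of leukocytes, endothelium and adipocytes, of which 4 of 6 were measured (the adipocyte marker was not), summed to 3.64 to 4.08 CPM at low glucose and 5.78 to 8.61 CPM at high glucose. PTPRC, the defining leukocyte marker, stayed at 0 to 0.178 CPM, CD14 was higher at high glucose (mean 4.24 against 1.25 CPM), and the endothelial markers went opposite ways, PECAM1 higher (2.13 against 1.0 CPM) and VWF lower (0.31 against 1.45 CPM); their part in the results was not tested.

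Among the 34 members, 21 passed an adjusted p of 0.05 (limma on log2(CPM + 1), adjusted over all 21059 genes), 8 of them higher and 13 lower at high glucose, and 13 did not pass. The share of members called, 61.8%, was close to the 62.1% of the 14372 genes with a mean of at least 1 CPM, a level that every member reached, and it lay above the 46.8% of all genes. The 8 higher members stood against 29.5% of those 14372 genes called higher, and the 13 lower members against 32.6% called lower. In 18 members (52.9%) the 4 high glucose values did not overlap the 4 low glucose values, against 60.0% of the 14372 genes. The median log2 change was -0.02 and the median size of the change 0.36, against -0.04 and 0.36 for the 14372 genes. As a set the members were thus called at about the rate of other expressed genes, and the results that follow are those of single genes, grouped by role.

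Of the glycosylases for uracil and thymine, all 4 were called and 3 of them rose, while those for oxidized and alkylated bases fell in all 3 called of 7, and both AP endonucleases fell. All 3 called of the 5 sensing and scaffold genes fell, and both called end-processing genes of 4 rose. In the gap-filling and ligation group PCNA rose while both ligases fell, and polymerase delta subunits fell in both called cases while polymerase epsilon subunits rose in both. Beside these counts, 62.1% of genes with a mean of at least 1 CPM were called, 29.5% higher and 32.6% lower. In roles of so few genes, a shared direction is a description, and no role was tested. Of the 21 called members, 15 kept the call whichever 1 library was left out, and MBD4, NTHL1, XRCC1, TDP1, POLD2 and POLE did not. The polymerase contrast thus rests in part on POLD2 and POLE, and on POLD4, whose level is uncertain because its words occur in other genes. No called member changed sign under either other scaling of the libraries. In bulk RNA, fewer cells of one kind or cell-cycle stage and less RNA per cell cannot be told apart.

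**Figure D1:**
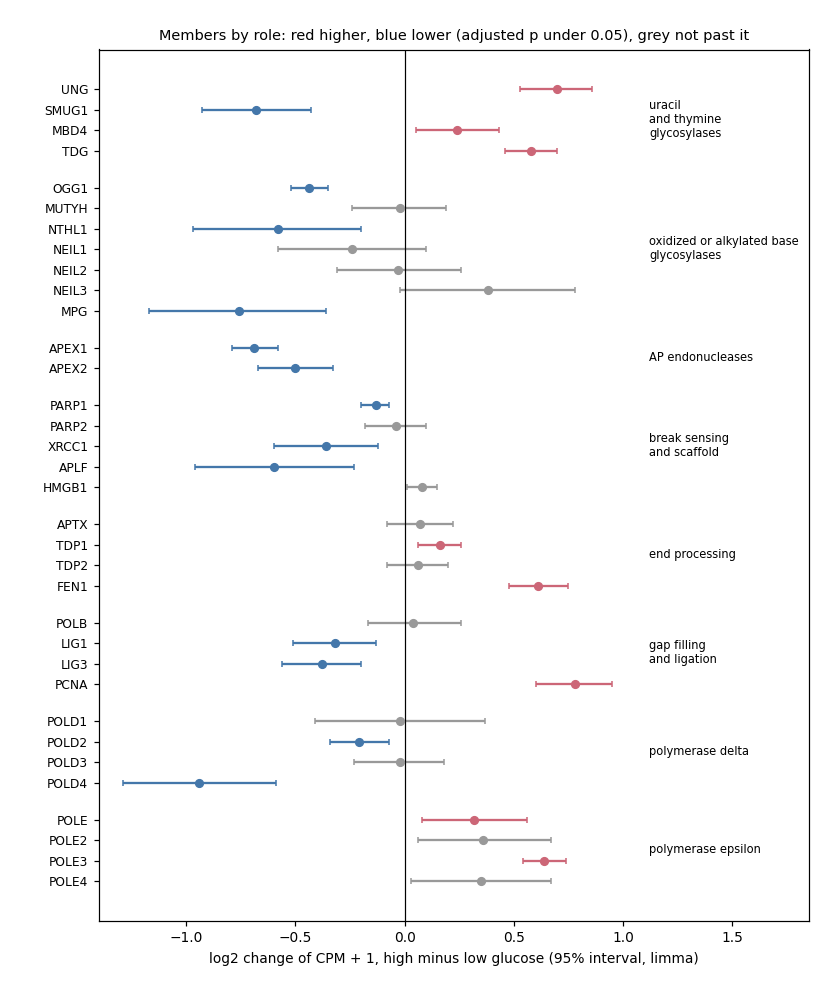
Log2 change of CPM + 1 (high minus low glucose, x axis) with its 95% interval from limma for the 34 members, grouped by role, with 4 libraries per group. Red points (8) were higher and blue points (13) lower with an adjusted p under 0.05, and grey points (13) did not pass; the ends of the range are PCNA at 0.78 and POLD4 at -0.94.

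The uracil and thymine glycosylases split, with UNG and TDG up and SMUG1 down. UNG, which removes uracil in the nucleus and in mitochondria, measured 25.1, 22.2, 22.3 and 25.6 CPM in low glucose replicates 1 to 4 and 42.8, 38.7, 35.9 and 39.4 CPM in high glucose replicates 1 to 4, an order of replicates kept for all values that follow. All 4 high glucose libraries lay above all 4 low glucose libraries, and the log2 change was 0.70 (SE 0.07, adjusted p = 1.7e-04, n = 4 per group). SMUG1, a glycosylase that also removes uracil and oxidized pyrimidines such as 5-hydroxymethyluracil, measured 20.3, 15.2, 16.2 and 18.5 CPM at low glucose and 10.8, 11.4, 10.97 and 9.07 CPM at high glucose. The groups again did not overlap, this time with high glucose below, and the log2 change was -0.68 (SE 0.11, adjusted p = 0.00161).

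TDG, which removes thymine mispaired with guanine and takes part in active DNA demethylation, measured 46.9, 51.9, 45.3 and 47.1 CPM at low glucose and 73.2, 67.5, 71.7 and 75.3 CPM at high glucose. No values were shared between the groups, and the log2 change was 0.58 (SE 0.05, adjusted p = 8.6e-05), although over 20% of the 31-base words of the transcript also occur in other genes, first the pseudogene TDGP1, so its level is uncertain. MBD4, the methyl-CpG-binding glycosylase for the same mispair, measured 25.5, 20.9, 20.1 and 21.5 CPM at low glucose and 25.8, 24.9, 25.2 and 28.4 CPM at high glucose. Here low glucose replicate 1 stood among the high glucose values, and the log2 change was 0.24 (SE 0.08, adjusted p = 0.0435). The call of MBD4 was lost in every fit that left out 1 library except low glucose replicate 1, with adjusted p from 0.0621 without high glucose replicate 2 to 0.105 without low glucose replicate 2.

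The ratio of UNG to SMUG1 within a library, which does not depend on how libraries are scaled apart from the added 1 CPM, lay on the log2 scale between 0.30 and 0.52 in the low glucose libraries and between 1.62 and 2.0 in the high glucose libraries. These ranges were separate, with a difference of 1.37, an exact permutation p of 0.0286 (the smallest that 70 assignments of 4 against 4 allow) and an adjusted p of 0.0571 over the 8 ratios examined. Per kilobase of transcript the mean levels of UNG and SMUG1 were 11.6 and 6.54 CPM at low glucose and 19.1 and 3.94 CPM at high glucose. Thus UNG was the more abundant of the pair in both groups, and by a wider margin at high glucose.

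Glycosylases for oxidized and alkylated bases fell where they passed the test. OGG1, the glycosylase for 8-oxoguanine paired with cytosine, measured 29.9, 27.8, 30.2 and 30.0 CPM at low glucose and 21.6, 22.2, 21.7 and 20.6 CPM at high glucose. Values within each group were close together and the groups lay apart, with a log2 change of -0.44 (SE 0.04, adjusted p = 7.5e-05). MPG, which removes 3-methyladenine and hypoxanthine, measured 18.4, 19.8, 21.5 and 18.2 CPM at low glucose and 14.8, 12.0, 10.6 and 7.84 CPM at high glucose. The high glucose libraries were spread widely but stayed below the low glucose ones, and the log2 change was -0.76 (SE 0.17, adjusted p = 0.00845). NPRL3 on the opposite strand overlaps 30.1% of the exonic bases of MPG, and CAMK1 and TADA3 overlap 29.0% of those of OGG1; the use of strand in counting is not given in the sources used here, so reads of these partners cannot be told apart.

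NTHL1, the glycosylase for oxidized pyrimidines such as thymine glycol, measured 4.83, 5.38, 5.61 and 4.44 CPM at low glucose and 4.52, 2.71, 2.80 and 2.40 CPM at high glucose. High glucose replicate 1 lay inside the low glucose range and the other 3 lay below it, and the log2 change was -0.58 (SE 0.16, adjusted p = 0.0212). Without high glucose replicate 1 the change was -0.74 (adjusted p = 0.00111). The call was lost without low glucose replicate 2 (adjusted p = 0.0554) or 3 (0.0573) and without high glucose replicate 2 (0.0566), 3 (0.055) or 4 (0.0516).

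The other 4 glycosylases did not pass and overlapped between the groups. MUTYH, which removes adenine placed opposite 8-oxoguanine, had means of 5.45 ± 0.72 and 5.33 ± 0.26 CPM (SD, n = 4) at low and high glucose and a log2 difference of -0.02 (95% interval -0.24 to 0.19, adjusted p = 0.896); 91.2% of its 31-base words also occur in an overlapping gene model, so its count is uncertain. NEIL1 and NEIL2, which act on oxidized pyrimidines and on bases in bubbles, had differences of -0.24 (-0.58 to 0.10, adjusted p = 0.229) and -0.03 (-0.31 to 0.26, adjusted p = 0.92). NEIL1 was lowest in high glucose replicate 1, at 1.62 CPM against 2.47 to 3.12 CPM in the other 3, and without that library its difference was -0.11 (adjusted p = 0.424). NEIL1 shared 50.1% of its words with other genes, and genes on the opposite strand overlap 30.5% of its exonic bases. NEIL3, a glycosylase of proliferating cells that also unhooks DNA crosslinks, measured 5.67 to 8.01 CPM at low glucose and 6.46 to 10.9 CPM at high glucose, a log2 difference of 0.38 (-0.02 to 0.78, adjusted p = 0.108) that passed only in some other fits, among them the one without high glucose replicate 2 (0.52, adjusted p = 0.0152).

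Both AP endonucleases fell. APEX1, the main enzyme that nicks abasic sites and also a redox regulator of transcription factors, measured 179, 174, 174 and 177 CPM at low glucose and 119, 103, 109 and 105 CPM at high glucose. The low glucose libraries had an SD of 2.15 CPM and all lay far above the high glucose ones, with a log2 change of -0.69 (SE 0.05, adjusted p = 2.6e-05). APEX2, a weaker AP endonuclease with a strong 3′ exonuclease that binds PCNA, measured 19.3, 19.1, 19.7 and 17.0 CPM at low glucose and 13.8, 12.3, 14.1 and 11.9 CPM at high glucose. Its groups were also separate, with a log2 change of -0.50 (SE 0.07, adjusted p = 0.00101).

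APEX1 was the more abundant per kilobase, at 121 against 5.81 CPM for APEX2 at low glucose and 75.1 against 4.02 CPM at high glucose. The log2 ratio of APEX1 to APEX2 lay between 3.08 and 3.30 in low and between 2.87 and 3.04 in high glucose, a difference of -0.19 (exact permutation p = 0.0286, adjusted p = 0.0571). The low and high ranges did not overlap, and the exact p was the smallest that the design allows. Every ratio at that p had an adjusted p of 0.0571, whatever the size of its difference. Not passing after adjustment therefore says little about this ratio alone. The difference was -0.10 (adjusted p = 0.267) after the length trend was taken out.

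**Figure D2:**
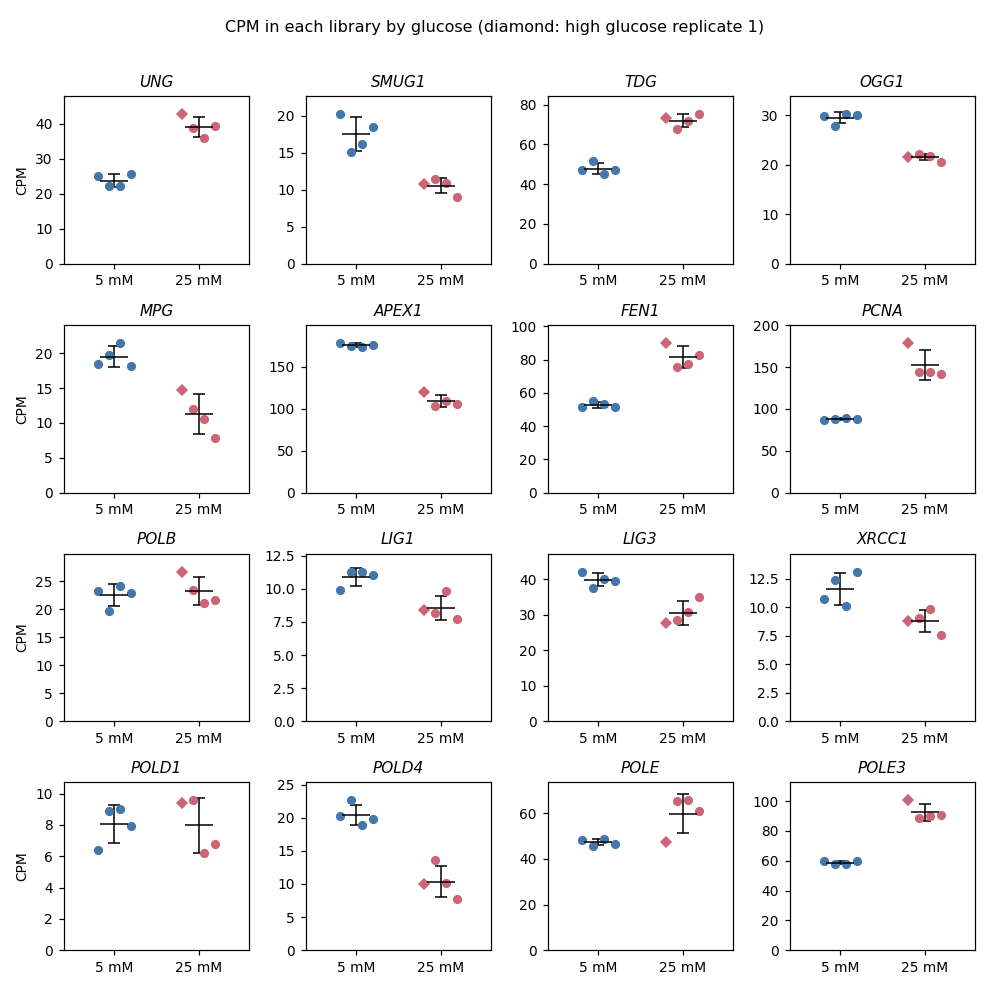
CPM (y axis, from 0) of 16 members in each of the 4 low glucose (5 mM, blue) and 4 high glucose (25 mM, red) libraries, with the mean and SD as black bars and high glucose replicate 1 as a diamond. UNG, TDG, FEN1, PCNA and POLE3 lie higher at 25 mM in all 4 libraries, SMUG1, OGG1, MPG, APEX1, LIG1, LIG3, XRCC1 and POLD4 lie lower in all 4, and POLB, POLD1 and POLE overlap.

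Break sensing and scaffold genes that passed were lower at high glucose, PARP1 by the least and APLF by the most. PARP1, the principal sensor of strand breaks, measured 209.9, 216, 208 and 215 CPM at low glucose and 193, 184, 199 and 197 CPM at high glucose. Every high glucose value was below every low glucose value, but the log2 change was only -0.13 (SE 0.03, adjusted p = 0.00689). PARP2, the second sensor of strand breaks, had means of 32.75 ± 1.495 and 31.9 ± 2.41 CPM (SD, n = 4), overlapping groups and a log2 difference of -0.04 (95% interval -0.18 to 0.10, adjusted p = 0.652). The log2 ratio of PARP1 to PARP2 was 2.56 to 2.73 and 2.50 to 2.65, which overlap (difference -0.10, exact permutation p = 0.0857, adjusted p = 0.137), and after the length trend was taken out the difference was -0.18 (adjusted p = 0.114).

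XRCC1, the scaffold that holds polymerase beta and ligase III, measured 10.8, 12.3, 10.1 and 13.1 CPM at low glucose and 8.79, 9.01, 9.82 and 7.55 CPM at high glucose. The groups came close but did not overlap, and the log2 change was -0.36 (SE 0.10, adjusted p = 0.0249). The call was lost without low glucose replicate 2 (adjusted p = 0.0667) or 4 (0.0615) or without high glucose replicate 4 (0.053). Genes on the opposite strand overlap part of the exonic bases of XRCC1, and 18.2% of its words occur elsewhere, so its level is uncertain. APLF, a factor that binds poly(ADP-ribose) and the Ku complex at breaks, measured 4.08, 5.63, 5.03 and 4.37 CPM at low glucose and 2.12, 3.43, 3.46 and 2.40 CPM at high glucose. All high glucose values were the lower ones (log2 change -0.60, SE 0.15, adjusted p = 0.0159), and another gene on the same strand overlaps 22.9% of its exonic bases. HMGB1, a chromatin protein that stimulates long patch repair, was measured at 153 to 160.1 CPM and 159 to 173 CPM, a difference of 0.08 (95% interval 0.01 to 0.15, adjusted p = 0.0623) that passed under both other scalings (adjusted p = 0.00817 and 0.00987) and without high glucose replicate 2 (0.0202). It was 0.03 (adjusted p = 0.544) after the length trend was taken out, and its adjusted p was 0.118 when genes with a mean under 1 CPM were left out. Pseudogenes and other genes share 23.4% of its words.

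Of the end-processing genes, FEN1 stood out in size. FEN1, the flap endonuclease of long patch repair and of Okazaki fragment maturation, measured 51.4, 55.4, 53.3 and 51.3 CPM at low glucose and 90.1, 75.6, 77.5 and 82.8 CPM at high glucose. The groups were far apart (log2 change 0.61, SE 0.06, adjusted p = 1.4e-04). TDP1, which removes topoisomerase I peptides from 3′ ends, measured 25.0, 23.1, 22.6 and 24.7 CPM at low glucose and 25.3, 26.9, 27.2 and 27.3 CPM at high glucose. High glucose replicate 1 nearly touched the top low glucose library, and the log2 change was 0.16 (SE 0.04, adjusted p = 0.0205).

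The TDP1 call was lost without low glucose replicate 2 (adjusted p = 0.0563) and without high glucose replicate 2 (0.0521), 3 (0.0546) or 4 (0.0518), and after the length trend was taken out (0.0862). APTX, which clears AMP from abortive ligation ends, did not pass (difference 0.07, 95% interval -0.08 to 0.22, adjusted p = 0.396). TDP2, which resolves topoisomerase II adducts at 5′ ends, did not pass either (0.06, -0.08 to 0.20, adjusted p = 0.444). Both intervals leave out a change of the size seen for FEN1.

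In gap filling and ligation the clamp rose, both ligases fell and polymerase beta did not pass. PCNA, the sliding clamp of replication and long patch repair, measured 86.4, 87.7, 89.6 and 88.4 CPM at low glucose and 179, 144, 144 and 142 CPM at high glucose. High glucose replicate 1 stood well above its 3 partners, which themselves all lay above low glucose, and the log2 change was 0.78 (SE 0.07, adjusted p = 1.5e-04), or 0.70 (adjusted p = 2.4e-06) without that library. POLB, the short patch gap-filling polymerase, measured 23.3, 19.6, 24.1 and 23.0 CPM at low glucose and 26.8, 23.4, 21.2 and 21.6 CPM at high glucose. Those values were interleaved, and the log2 difference was 0.04 (95% interval -0.17 to 0.26, adjusted p = 0.765).

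Within libraries, the log2 ratio of PCNA to POLB ran from 1.84 to 2.10 in low glucose libraries and from 2.57 to 2.71 in high glucose libraries. The ranges were separate, with a difference of 0.73 (exact permutation p = 0.0286, adjusted p = 0.0571), and it was 0.72 without high glucose replicate 1.

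LIG1, the ligase that seals Okazaki fragments and long patches, measured 9.92, 11.3, 11.3 and 11.1 CPM at low glucose and 8.40, 8.21, 9.82 and 7.73 CPM at high glucose. Low glucose replicate 1 and high glucose replicate 3 nearly met, and the log2 change was -0.32 (SE 0.08, adjusted p = 0.0133). LIG3, the nuclear and mitochondrial ligase that partners XRCC1, measured 42.1, 37.6, 40.1 and 39.5 CPM at low glucose and 27.7, 28.6, 30.6 and 35.1 CPM at high glucose. The groups did not overlap (log2 change -0.38, SE 0.08, adjusted p = 0.00515), but 45.6% of its words occur elsewhere, first in RFFL, whose exons overlap it on the opposite strand. The log2 ratio of LIG1 to LIG3 overlapped between the groups (difference 0.06, exact permutation p = 0.629, adjusted p = 0.718), so no shift between the ligases was detected. PCNA, FEN1 and LIG1 act together in long patch repair, and of these LIG1 alone fell.

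**Figure D3:**
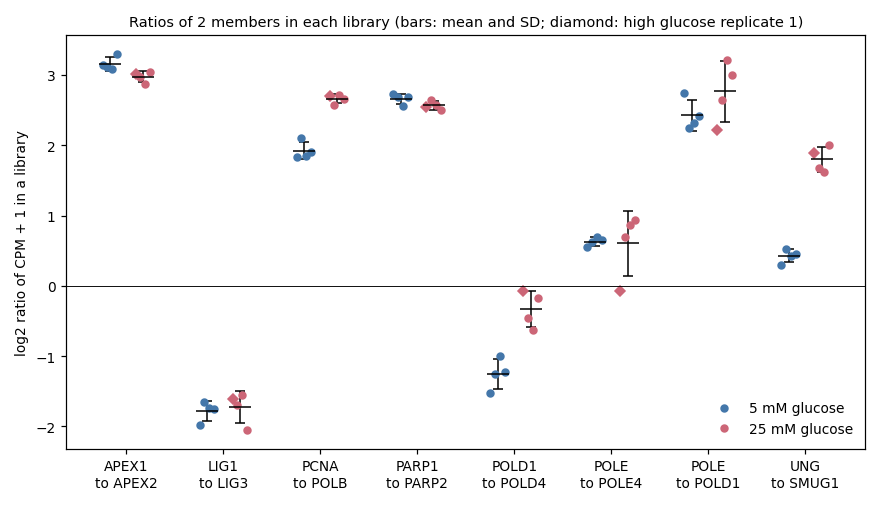
Log2 ratio of 2 members (y axis, CPM + 1) within each of the 4 low glucose (blue) and 4 high glucose (red) libraries, with mean and SD as black bars and high glucose replicate 1 as a diamond. For UNG to SMUG1, POLD1 to POLD4, PCNA to POLB and APEX1 to APEX2 the groups do not overlap (exact permutation p = 0.0286 for each, adjusted 0.0571), and for POLE to POLE4 that replicate lies at -0.08 while the other 3 lie at 0.69 to 0.93.

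The 4 subunits of polymerase delta did not move as 1 unit. POLD4, the smallest and accessory subunit, measured 20.2, 22.6, 19.0 and 19.9 CPM at low glucose and 9.98, 13.5, 10.2 and 7.74 CPM at high glucose. No high glucose library came near the low glucose range, and the log2 change was -0.94 (SE 0.15, adjusted p = 0.00172), the farthest from 0 of the 34 members. Of the words of POLD4, 47.6% occur in other genes, and 21.3% of its exonic bases are overlapped by another gene on the same strand, so its level is uncertain. POLD2, the B subunit that ties the complex together, measured 148, 151, 147 and 155 CPM at low glucose and 143, 129, 132 and 118 CPM at high glucose. The groups were narrowly separate, and the log2 change was -0.21 (SE 0.06, adjusted p = 0.0198) that missed the threshold without low glucose replicate 4 (0.0546) or high glucose replicate 2 (0.0505).

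POLD1, the catalytic subunit, measured 6.42, 8.86, 9.004 and 7.94 CPM at low glucose and 9.39, 9.57, 6.19 and 6.76 CPM at high glucose. Its values were fully interleaved, and the log2 difference was -0.02 (95% interval -0.41 to 0.37, adjusted p = 0.96). POLD3, which joins the complex to PCNA, also overlapped, at 14.5 to 18.4 CPM and 14.9 to 17.3 CPM (difference -0.02, -0.23 to 0.18, adjusted p = 0.88). The log2 ratio of POLD1 to POLD4 lay between -1.52 and -1.0 at low glucose and between -0.63 and -0.08 at high glucose. These ranges were separate (difference 0.91, exact permutation p = 0.0286, adjusted p = 0.0571). Per kilobase, transcripts of the subunits were unequal already at low glucose, with 93.4 CPM for POLD2, 12.1 for POLD4, 4.40 for POLD3 and 2.35 for POLD1.

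Polymerase epsilon subunits lay higher at high glucose, 2 of the 4 past the threshold. POLE3, a histone-fold subunit that also serves a chromatin remodeling complex, measured 60.0, 57.6, 57.8 and 59.5 CPM at low glucose and 100.4, 88.7, 89.7 and 90.5 CPM at high glucose. The separation was wide against the spread, with a log2 change of 0.64 (SE 0.04, adjusted p = 2.3e-05). POLE, the catalytic subunit, measured 48.5, 45.6, 48.6 and 46.8 CPM at low glucose and 47.4, 65.3, 65.7 and 61.0 CPM at high glucose. High glucose replicate 1 stood inside the low glucose range while the other 3 lay well above it, and the log2 change was 0.32 (SE 0.10, adjusted p = 0.038).

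Without high glucose replicate 1 the POLE change was 0.43 (adjusted p = 1.9e-04), and leaving out any 1 of the other 7 libraries lost the call, with adjusted p from 0.0694 (without low glucose replicate 3) to 0.0937 (without high glucose replicate 2). POLE2, the B subunit, measured 1.89 to 3.14 CPM at low glucose and 2.95 to 3.95 CPM at high glucose, a difference of 0.36 (95% interval 0.06 to 0.67, adjusted p = 0.0541). POLE4, the partner of POLE3 in the histone-fold pair, measured 29.2 to 32.9 CPM and 31.6 to 50.3 CPM, a difference of 0.35 (0.03 to 0.67, adjusted p = 0.0747). Both passed when only genes with a mean of at least 1 CPM were tested (adjusted p = 0.0327 and 0.0157), POLE2 also without low glucose replicate 3 (0.015) and POLE4 without high glucose replicate 4 (0.0259). They passed too with median-of-ratios scaling (adjusted p = 0.0387 and 0.0472) and after the length trend was taken out (0.0124 and 3.1e-04). With equal totals POLE2 passed (0.0415) and POLE4 did not (0.0534). Neither passed with a pseudocount of 0.1 CPM (0.0605 and 0.0777) or a replicate block (0.103 and 0.0531). Without high glucose replicate 1 the POLE4 difference was 0.22 (adjusted p = 0.0802).

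Ratios of POLE to other subunits overlapped between the groups and moved when single libraries were left out. The log2 ratio of POLE to POLD1 ran from 2.24 to 2.74 in low glucose libraries and from 2.22 to 3.21 in high glucose libraries (difference 0.34, exact permutation p = 0.257, adjusted p = 0.343), and the difference was 0.53 without high glucose replicate 1 and 0.20 without high glucose replicate 3. The ratio of POLE to POLE4 differed by -0.03 (exact permutation p = 0.971, adjusted p = 0.971), by 0.20 without high glucose replicate 1 and by -0.15 after the length trend was taken out. Per kilobase at low glucose, POLE3 and POLE4 stood at 26.8 and 27.6 CPM, POLE at 6.06 CPM and POLE2 at 1.42 CPM.

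High glucose replicate 1 differed from its 3 partners along transcript length. It was the highest of the 4 high glucose libraries in 15 members and the lowest in 6, and over the 34 members, which range from 1030 to 8382 bases, its log2 difference from the mean of the other 3 had a Spearman correlation of -0.62 with transcript length, against -0.54 over the genes with a mean of at least 1 CPM. The points share 1 library and 1 set of partners, and no p is given. The correlation of the members' log2 change between groups with length was 0.05. With GC content of the transcript it was -0.47 over the members and -0.17 over 14227 genes, so lower values at high glucose went with higher GC content, whose part in the results was not tested. Without high glucose replicate 1, 20 of the members passed, and after the length trend was taken out of every library 23 did.

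**Figure D4:**
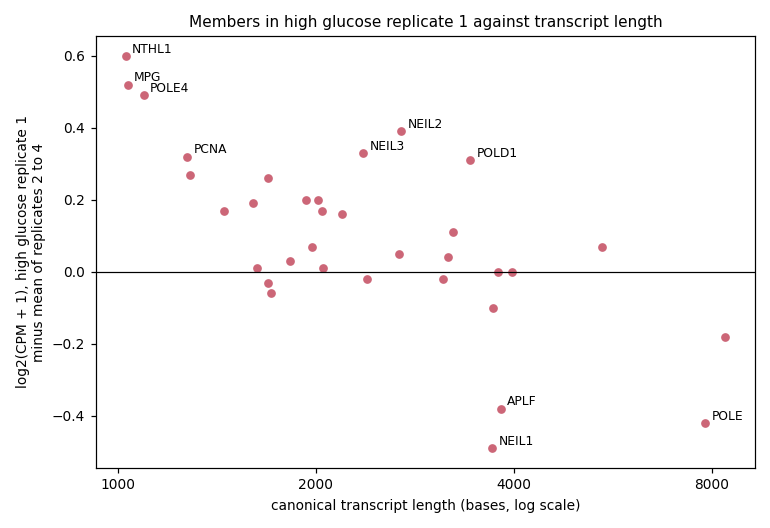
Log2(CPM + 1) of each of the 34 members in high glucose replicate 1 minus the mean of high glucose replicates 2 to 4 (y axis) against canonical transcript length in bases (x axis, log scale). Short transcripts such as NTHL1, MPG, POLE4 and PCNA lie above 0 and long ones such as POLE and APLF below it (Spearman correlation -0.62).

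Other genes of the same pathways were counted in 3 further lists, all at a mean of at least 1 CPM, where 62.1% of genes were called, 29.5% higher and 32.6% lower. Of 12 other base excision and single-strand break repair genes, 6 fell and none rose. POLL, the gap-filling polymerase lambda, had means of 14.4 ± 0.51 and 6.26 ± 0.51 CPM (SD, n = 4) at low and high glucose and changed by -1.08 on the log2 scale (adjusted p = 1.5e-05). DUT, which keeps dUTP out of DNA synthesis, fell by 0.56 on the log2 scale (adjusted p = 0.0018), and HPF1, the factor that directs PARP1 to serine, by 0.32 (0.00324). Of 17 genes for clamp loading, priming and single-strand binding, 8 rose and 4 fell: ATAD5, which unloads PCNA, changed by 0.90 (adjusted p = 1.1e-04), the clamp loader subunits RFC3 and RFC5 by 0.59 (8.3e-04) and 0.31 (0.00255), and the single-strand binding subunit RPA2 by 0.39 (0.00318). Of the 6 MCM helicase genes, 4 rose and 1 fell, among them MCM4 by 0.65 (adjusted p = 2.0e-06), MCM7 by 0.62 (1.9e-05) and MCM3 by 0.50 (4.4e-05), while MCM6 changed by -0.18 (0.0411). The medians of the 3 lists were -0.16, 0.07 and 0.34, beside -0.04 for the genes with a mean of at least 1 CPM.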

How the data were processed

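Per the labels, 8 libraries of MDA-MB-157 cells were sequenced, 4 per glucose level. The authors deposited 1 table of CPM, scaled with TMM factors from edgeR. Per the labels the build was hg38, while the study's methods, which describe tumors first, name hg19, TopHat and a stranded kit, and the counting tool and its use of strand are not given in the sources used here. Low values lay on steps of 1 read, but only 72.2% to 74.0% of values below 200 reads were whole within 0.01 read, so no count test was run. The floors of 3 reads cover counting error only, and the 95% intervals come from the spread between libraries.

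Of 21077 lines, 18 pseudoautosomal Y copies were left out. Log2(CPM + 1) was compared with limma 3.58.1 in R 4.3.3 (eBayes with trend, 2-sided, Benjamini-Hochberg over all 21059 genes, threshold 0.05), tested on simulated data. Every member was named, with library values for those past the threshold and for POLB and POLD1, and of each other list up to 4 genes with the smallest adjusted p, less 1 that is not reported here. Ratios used a 2-sided exact permutation test in Python 3.11.15. The members and lists were chosen with earlier results of these data known. Replicate numbers did not pair the libraries (correlations of deviations between same numbers -0.0403 to 0.0692). Transcript lengths, GC, shared 31-base words and overlaps came from GENCODE v44 lifted to GRCh37, and promoters from RefSeq. Protein sequence was not used here. Alternatives were another pseudocount (0.1 CPM), filters on mean CPM (1 and 5), 2 scalings, a replicate block, removal of the length trend and leaving out each library.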

Additional observations from a re-analysis of the deposited data

Results flagged for a closer look

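In 7 of 84 groups of 4 libraries examined, 1 library lay far from its 3 partners, where chance alone gives about 4.2 (about 1 in 20). The gap to the nearest partner, as a share of the group's range, was 0.9327 for PCNA at high glucose (replicate 1, 178.9 against 144.4 CPM), 0.8493 for POLE3 at high glucose (replicate 1, 100.4 against 90.48 CPM) and 0.8302 for TDP1 at high glucose (replicate 1, low, 25.27 against 26.94 CPM). It was 0.8308 for MUTYH at high glucose (replicate 2, 5.707 against 5.237 CPM). At low glucose it was 0.8892 for POLE4 (replicate 1, 32.92 against 29.64 CPM), 0.8544 for OGG1 (replicate 2, low, 27.81 against 29.88 CPM) and 0.8365 for LIG1 (replicate 1, low, 9.919 against 11.07 CPM).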

How the results depend on the processing

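The number of members past the threshold was 21 as reported and 16 to 24 under the alternatives, and of all genes 9849 and 8120 to 10156. These counts do not share 1 denominator, since the filters on mean CPM and the removal of the length trend tested fewer genes. The 8120 genes are those of the filter at 5 CPM, which left out NTHL1, NEIL1, APLF and POLE2 among the members. Leaving out 1 library gave 16 to 20 members and 8899 to 10156 genes. With a replicate block, 17 members and 8921 genes passed; MBD4, XRCC1, TDP1, POLD2 and POLE lost the call and HMGB1 gained it, and since the replicate numbers did not pair the libraries this is no sign of a weaker effect. Of the 21 called members, 15 kept sign and call in every fit without 1 library. Signs turned only in members that did not pass. With median-of-ratios scaling MUTYH was 0.01, NEIL2 0.01, PARP2 0.0026, POLD1 0.01 and POLD3 0.02; with equal totals POLD3 was 0.00029; with the length trend removed MUTYH was 0.03 and PARP2 0.01. Without 1 library the ranges were -0.07 to 0.04 for MUTYH, -0.12 to 0.06 for NEIL2, -0.07 to 0.01 for PARP2, -0.03 to 0.08 for POLB, -0.12 to 0.08 for POLD1 and -0.08 to 0.02 for POLD3, and for the ratios -0.01 to 0.17 (LIG1 to LIG3) and -0.14 to 0.20 (POLE to POLE4). The cause was not tested. None of the 8 ratios passed after adjustment with either pseudocount or with the length trend taken out, and 4 had an unadjusted exact p of 0.0286. That is the smallest p the design allows, and it gave these 4 an adjusted p of 0.0571. A ratio could thus not pass by the size of its difference alone. Each member was above 3 reads in every library, and the part of depth in the width of the intervals was not tested.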
